A study of Mus musculus with 4 samples.

Results

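The genes described here were those of the cytosolic ribosomal proteins. They were chosen by gene symbol alone, as every symbol that begins with Rpl or Rps and a number, with Rplp0, Rplp1, Rplp2 and Rpsa added, and without pseudogene symbols and S6 kinases. The rule took 87 of the 27998 genes of the deposited table. Of these, 77 stood in a list of 79 ribosomal proteins and are called the core genes, 31 of the small and 46 of the large subunit. The other 10 were Rpl22l1, Rps27l, Rps27rt, Rpl36al, Rpl39l, Rpl3l, Rpl6l, Rpl7l1, Rpl10l and Rps19bp1. Apart from Rps19bp1, these are paralogs or copies of core genes. Rps19bp1 codes for a protein that binds Rps19 and is no part of the ribosome.

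CD11b+ splenocytes of C57BL/6 mice of 8 to 12 weeks were profiled by CITE-seq, which counts the RNA of single cells as unique molecular identifiers (UMIs) together with antibody tags. One group was in steady state and the other in the GM-conditioned state, after 3 once-daily subcutaneous injections of 10 µg of GM-CSF with cells taken 24 h after the last. There was 1 library per condition, and how many animals each held is not given in the sources used here. No test between conditions was therefore made, and the effect of GM-CSF and the library cannot be told apart. Intervals are exact Poisson 95% intervals for a share, and intervals from the binomial share of the counts for a ratio, and they cover counting error only.

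Most ribosomal proteins are made in equal numbers for each ribosome, and the messenger RNAs of ribosomal proteins are among the most abundant of any growing cell. Most of these messengers start with a short run of pyrimidines, the TOP motif, through which mTOR signalling sets their translation. Ribosome production is high in cycling precursors and activated lymphocytes, and falls when neutrophils mature.

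Depth was 22358903 UMIs over 4827 cells in steady state, and 35007567 UMIs over 6804 cells after GM-CSF. The libraries had 8 cell barcodes in common. Scrublet called 152 and 186 cells doublets, and these were kept except in an alternative. Levels are given as CPM, the UMIs of a gene scaled to a common total of UMIs. The deposited types were checked against marker lists. T cells held 4 T cell markers at 1920 CPM in steady state and 2624 CPM after GM-CSF, against 16.6 and 8.70 CPM in granulocytes, although Itgam, the gene of the sort marker CD11b, was at 44.0 and 0 CPM in T cells. The type deposited as cDC2-A went against its label, with 6 NK cell markers at 18903 and 19864 CPM and 5 cDC2 markers at 20.97 and 15.94 CPM, so its values are given by that label only. Progenitor DCs held 4 progenitor DC markers at 334 and 228 CPM, below MoMacDC_c1 (418 and 276 CPM) and above granulocytes (4.35 and 6.22 CPM). They held the cDC2 markers at 525 and 258 CPM, so this name too is the deposited label only. MoMacDC cells are here the cells of MoMacDC_c1, MoMacDC_c2, MoMacDC_c4 and MoMacDC_c5 together with progenitor DCs, which the study deposited as a table of their own.

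Ribosomal protein genes took 9309018 UMIs, or 16.2% of all. At least 1 UMI was found for 86 of the 87 genes, and Rpl10l had none. The core genes held 99.1% of these UMIs, and the small subunit genes held 48.0% of the core UMIs. A core gene had between 13385 and 272599 UMIs, a 20.4-fold range around a median of 121910. The UMI method counts the 3′ end of each captured molecule, so that a level in CPM is not divided by length.

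The highest levels over all cells, in CPM, were those of Rps9 (4752; GRCm38, chr7:3703993-3706897, plus strand), Rps27a (4228), Rps24 (3913), Rpl13 (3716) and Rps14 (3480). Rps27a is made as a fusion with ubiquitin. The lowest core genes were Rpl27 (233; chr11:101442298-101445529, plus strand), Rpl15 (325), Rpl31 (406), Rps28 (470) and Rpl23a (475). Of the core genes, 53 had a near-identical stretch elsewhere in the genome (at least 98% identity over 90 bases of their last 400), and 37 had one over more than 90% of these bases. Reads from such stretches can be lost or split, and levels between genes are uncertain for that reason. The median level was 2087 CPM for the 37 genes and 2226 CPM for the others.

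The part of a cell's RNA that coded for ribosomal proteins differed widely between cell types. In steady state it was 28.8% of UMIs in T cells (28.7 to 28.9%) and 3.45% in granulocytes (3.43 to 3.47%), an 8.36-fold difference. After GM-CSF the values were 30.1% and 3.99%, a 7.53-fold difference. The quartiles over cells did not overlap between these types, being 24.9 and 33.4% in T cells and 2.70 and 4.05% in granulocytes of the steady-state library.

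Between these ends, the types kept a wide range. B cells had 20.3% in steady state and 25.5% after GM-CSF. Progenitor DCs had 19.0 and 21.8%, and MoMacDC_c1 had 16.3 and 21.03%. MoMacDC_c5, in which 4 markers of non-classical monocytes stood at 3792 and 1735 CPM, was lower, with 13.7 and 17.2%. Macrophages were lower still, at 8.07% in 25 cells and 10.9% in 22 cells. Neutrophils had 4.85 and 7.73%. The median depth of a cell in steady state was 1770 UMIs in granulocytes, 3747 in T cells and 7322 in MoMacDC_c1. Drawing 1000 UMIs from each cell gave a T cell to granulocyte ratio of 8.34 in steady state, over 173 and 1921 cells. Such a draw keeps the expected share of each cell, gives cells equal weight and leaves out those under 1000 UMIs. It therefore cannot test an effect of depth on the share.

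**Figure D1:**
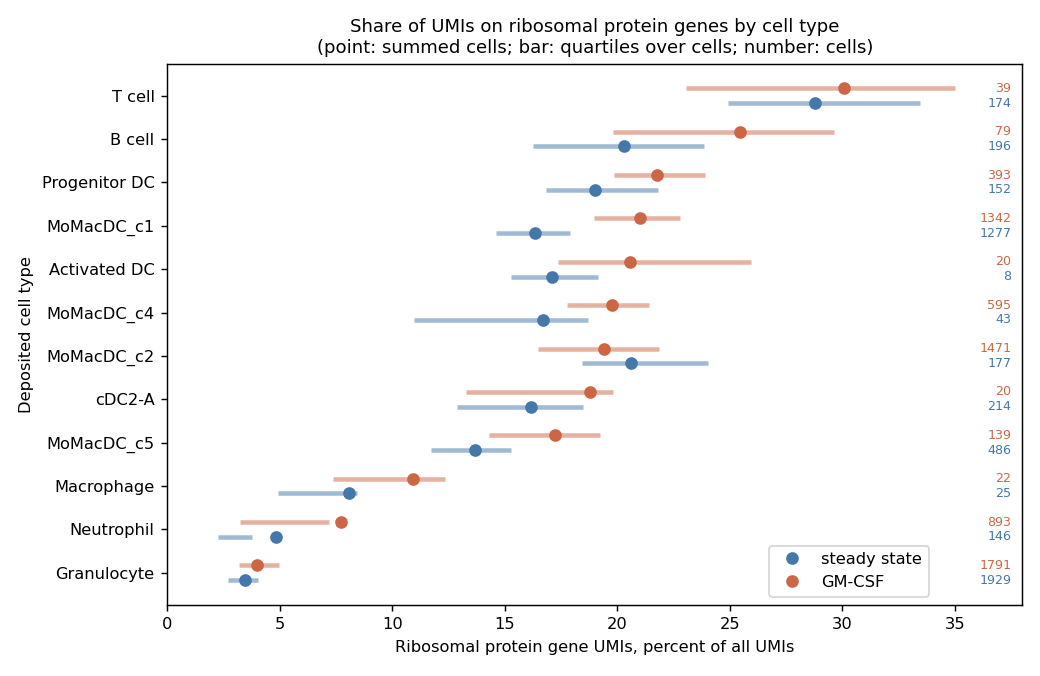
Share of UMIs on ribosomal protein genes (x axis, percent of all UMIs) in the 12 deposited cell types (y axis), with steady state in blue and GM-CSF in orange. Points are sums over the cells of a type, bars span the quartiles over cells and the numbers on the right count the cells. Granulocytes and neutrophils lay below 8% in both libraries and T cells above 28%, and MoMacDC_c2 was the only type with a lower share after GM-CSF.

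Against MoMacDC cells of the same library, granulocytes had 0.207 times the ribosomal protein share in steady state and 0.197 times after GM-CSF. Of the 85 genes with at least 50 UMIs, 83 were at least 1.5-fold lower in granulocytes in steady state, where 56.4% of all genes tested were, and 82 after GM-CSF, where 50.7% were. At least 1.5-fold higher was only Rpl3l in each library, on 78 and 49 UMIs in granulocytes, where 17.7% and 22.2% of all genes were. The median ratio was 0.178 and 0.180 for these genes, and 0.544 and 0.655 for all genes tested.

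The low share in granulocytes was far from even over the genes. Rpl10a, the protein of the L1 stalk, had 35.6 CPM in granulocytes and 1327 CPM in MoMacDC cells in steady state, a ratio of 0.0270, and 54.7 and 2431 CPM after GM-CSF, a ratio of 0.0226. Rpl3, a protein near the catalytic centre, was at a ratio of 0.0352 and 0.0326. Rpsa, a small subunit protein also known as the laminin receptor, was at 0.0391 in steady state and 0.0634 after GM-CSF. At the other end, Rps9 kept 3740 of 4806 CPM in steady state and 3619 of 5496 CPM after GM-CSF, ratios of 0.778 and 0.659. Rps27, a zinc finger protein of the small subunit, was at 0.611 and 0.774.

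The same gene therefore made up a very different part of the ribosomal protein UMIs in different types. Rps9 alone took 9.07% of them in granulocytes after GM-CSF and 1.60% in cDC2-A. In steady state, Rpl12 ranged 10.2-fold, from 0.179% in granulocytes to 1.83% in T cells, followed by Rpl10a (8.69-fold), Rpl3 (7.65-fold), Rpsa (7.31-fold) and Rps27l (6.66-fold). After GM-CSF the widest ranges were those of Rpl10a (9.23-fold), Rpl12 (8.44-fold), Rpl3 (6.51-fold), Rps20 (6.14-fold) and Rps9 (5.65-fold). The median granulocyte held 60 and 50 UMIs of ribosomal protein genes, so these are values of summed cells and not of single ones.

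**Figure D2:**
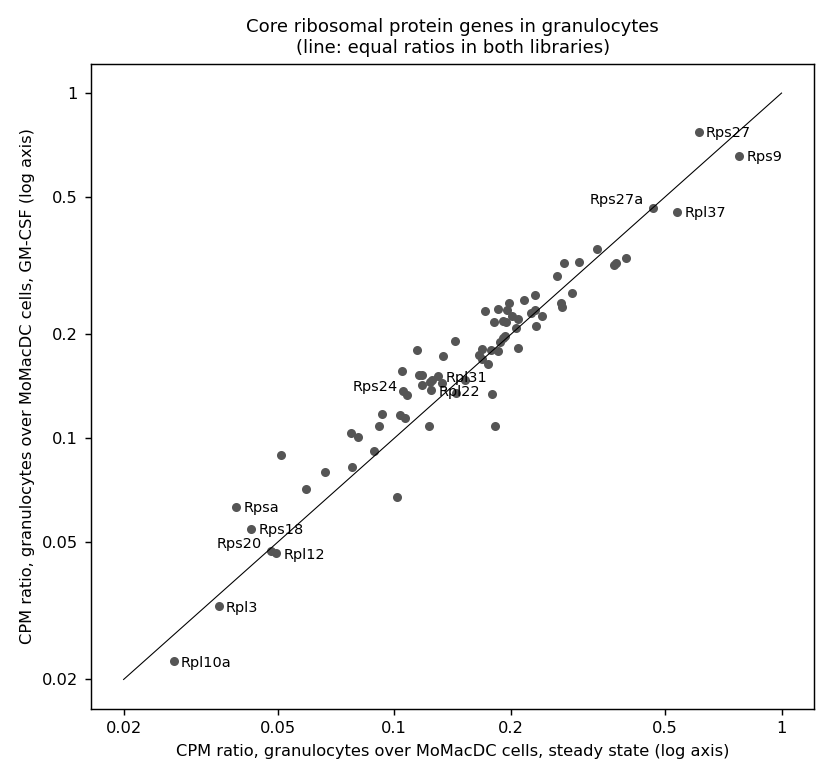
Ratio of the CPM in granulocytes to that in MoMacDC cells for each core gene, in steady state (x axis, log scale) and after GM-CSF (y axis, log scale), with a line where both are equal. Each point is a gene, and the points run from Rpl10a, at 0.0270 and 0.0226, to Rps9 and Rps27, the 2 genes closest to 1 in both libraries.

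T cells were 1.73-fold (steady state) and 1.49-fold (GM-CSF) above MoMacDC cells. In steady state 58 of 85 genes were at least 1.5-fold higher and 3 lower, where 22.5% and 32.3% of all genes were. After GM-CSF the counts were 33 higher and 1 lower, beside 33.5% and 30% of all genes. Rpl12, at the base of the stalk that binds elongation factors, was the highest core gene in steady state, with 5276 CPM in T cells and 1250 CPM in MoMacDC cells (4.22-fold), and stood at 2.95-fold after GM-CSF, when Rps27 was the highest core gene at 3.34-fold. Rplp1, a protein of that stalk, was 2.98-fold and Rps20 2.65-fold higher in steady state. Rps27l went the other way, with ratios of 0.466 and 0.531. Rpl10, which completes the large subunit late in its assembly, was at 0.785 and 0.939.

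B cells stood closer to MoMacDC cells, 1.22-fold and 1.26-fold higher in sum. In steady state 8 genes were at least 1.5-fold higher and 2 lower (22% and 23.1% of all genes), and after GM-CSF 10 and 2 (23.8% and 32.8%). Rpl12 was among the highest in both libraries, at 2.19-fold and 1.71-fold. Rps27 was at 1.747-fold and 2.78-fold. The comparisons of T, B and other cells all use the same MoMacDC cells, and all types came from the same pair of libraries.

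The deposited neutrophils numbered 146 cells in steady state and 893 after GM-CSF, and the 8 neutrophil markers took 350366 and 279237 CPM in them. Their summed share was 0.291 and 0.382 times that of MoMacDC cells, and 84 of 85 genes were at least 1.5-fold lower in each library (58.3% and 58.9% of all genes). At least 1.5-fold higher were 0 genes in steady state (11.4% of all genes) and 1, Rpl3l, after GM-CSF (12.5%). The ratios in steady state ran from 0.178 for Rpl10a to 0.686 for Rps19bp1. The share per cell had a long upper tail, with a median of 2.86% and a maximum of 18.6% in steady state, and 4.44% and 28.7% after GM-CSF.

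The upper tail held cells with UMIs of precursor genes and also cells without them. Classes by 4 genes were formed after the data were seen. Elane and Mpo are made in early neutrophil precursors, and Mki67 and Top2a in dividing cells. In cells with an Elane or Mpo UMI, ribosomal protein genes took 13.1% of UMIs in steady state (7 cells) and 18.4% after GM-CSF (33 cells). In cells without these but with an Mki67 or Top2a UMI the shares were 5.08% (22 cells) and 9.01% (149 cells). With none of the 4 they were 3.15% (117 cells) and 5.18% (711 cells). The order of the classes was the same in both libraries. Single cells of the classes overlapped, and after GM-CSF the highest shares were 28.7, 20.3 and 17.7% in this order of classes. The lowest share of a cell with Elane or Mpo was 2.87% there.

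Deeper cells are more likely to show a UMI of any gene, and the cells with Elane or Mpo had medians of 19421 and 16125 UMIs against 6256 and 4323 in those without. When 1000 UMIs were drawn from each cell, the shares with and without Elane or Mpo were 12.8 and 3.24% in steady state and 19.4 and 5.42% after GM-CSF, in 4 and 142 and in 22 and 858 cells. Cells under 1000 UMIs were left out of this. Over all UMIs, cells without a UMI of the late genes Mmp8 and Retnlg had 6.38 and 13.7%, and cells with one 4.56 and 6.88%. At 1000 UMIs per cell these were 5.49 and 10.06%, and 2.67 and 4.50%.

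**Figure D3:**
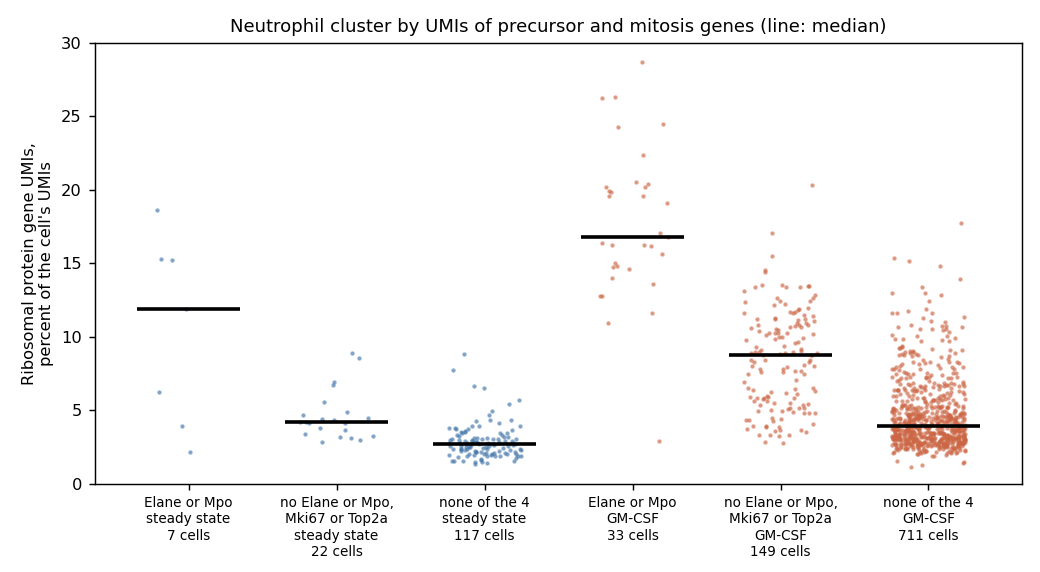
Share of ribosomal protein UMIs in each cell of the neutrophil cluster (y axis, percent of the UMIs of the cell) by class and library (x axis), with steady state in blue and GM-CSF in orange. Points are cells and lines are medians, which were 11.9, 4.21 and 2.66% in steady state and 16.8, 8.73 and 3.92% after GM-CSF for cells with Elane or Mpo, cells with only Mki67 or Top2a, and cells with none of the 4.

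Between the libraries, the summed share was higher after GM-CSF in 11 of the 12 deposited types. In MoMacDC cells it was 16.7% in steady state (2135 cells) and 20.2% after GM-CSF (3940 cells), a ratio of 1.22 (1.21 to 1.22). Neutrophils had the highest ratio, 1.59 (1.58 to 1.61). The ratio was 1.36 in macrophages, 1.29 in MoMacDC_c1, 1.26 in MoMacDC_c5, 1.254 in B cells, 1.18 in MoMacDC_c4, 1.16 in granulocytes and in cDC2-A, 1.15 in progenitor DCs and 1.04 in T cells. In cDC2-A the neutrophil markers stood at 1208 CPM in steady state and 17329 CPM after GM-CSF, and their part in its ratio was not tested. In MoMacDC_c4 the steady-state cells held NK cell markers at 11662 CPM, T cell markers at 191 CPM and B cell markers at 336 CPM, and the GM-CSF cells held them at 17.6, 0 and 2.62 CPM, so its values compare unlike cells. The neutrophil markers were lower after GM-CSF in neutrophils (350366 and 279237 CPM) and in progenitor DCs (8901 and 2080 CPM). They were also lower in B cells (3192 and 789 CPM) and T cells (2574 and 329 CPM), and their part in these ratios was not tested. Activated DCs had 17.1% in 8 cells and 20.5% in 20 cells. The share of mitochondrial UMIs was also higher after GM-CSF in most types, with medians of 3.40 and 4.54% in MoMacDC cells and 0.315 and 0.519% in granulocytes. With mitochondrial UMIs left out of the total, the ratio was 1.23 in MoMacDC cells, 1.61 in neutrophils and 1.16 in granulocytes. Any other link between the 2 shares was not tested.

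MoMacDC_c2 had the opposite direction, with 20.6% in 177 steady-state cells and 19.4% in 1471 GM-CSF cells, a ratio of 0.942 (0.938 to 0.945). The same was seen in the study's finer clusters 0 and 3, which held most of these cells. Cluster 0 had 23.4% in 14 steady-state cells and 19.9% in 668 GM-CSF cells. Cluster 3 had 22.5% in 88 and 19.9% in 512 cells. In the other 15 clusters the ratio lay between 1.05 and 1.37. The 8 neutrophil markers stood at 8810 CPM in steady state and 6723 CPM after GM-CSF in MoMacDC_c2, against 2139 and 1145 CPM in MoMacDC_c1, and their part in the result was not tested.

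Gene by gene, the change between libraries was not uniform. In MoMacDC cells, 16 of 85 genes were at least 1.5-fold higher after GM-CSF and 5 at least 1.5-fold lower, beside 16.3% and 18.8% of all genes. The median ratio was 1.22 for the ribosomal protein genes and 0.959 for all genes. Rpl14, a large subunit protein, had 993 CPM in steady state and 2214 CPM after GM-CSF, a 2.23-fold difference. Rpl12 was at 1250 and 2604 CPM (2.08-fold) and Rpl3 at 1465 and 2907 CPM (1.98-fold). Rps2, which lines the entry of the messenger RNA, was 1.97-fold and Rpl10a 1.83-fold higher.

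The lowest ratios were those of Rpl3l, Rps27rt, Rps27, Rps28 and Rpl27. Rps27 had 1814 CPM in steady state and 851 CPM after GM-CSF, a ratio of 0.469. Rps28, near the exit of the messenger RNA, was at 0.613 and Rpl27 at 0.638. The copy Rps27rt was at 0.449, and its reads are hard to tell from those of Rps27. Rpl3l had 0.296, on 114 and 61 UMIs. Its ratio lay between 0.455 and 0.960 in the 3 deposited types with at least 50 of its UMIs. MoMacDC_c5 held 66 of the 114 steady-state UMIs, and made up 486 of 2135 MoMacDC cells in steady state and 139 of 3940 after GM-CSF.

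Granulocytes had 32 genes at least 1.5-fold higher and 5 lower of 83, beside 19.8% and 8.58% of all genes. Rpsa had 102 CPM in steady state and 296 CPM after GM-CSF (2.89-fold). Rplp0, the base of the ribosomal stalk, was 2.43-fold, Rpl14 2.30-fold and Rps18 2.06-fold higher. The lowest ratios were those of Rps27rt (0.490), Rps27 (0.594), Rps21 (0.628), Rpl39 (0.639) and Rps28 (0.659). Rpl39 lines the exit tunnel of the large subunit.

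Neutrophils had the most genes past 1.5-fold, 47 higher and 3 lower of 84 (10.7% and 10.7% of all genes). In B cells 23 of 82 were higher and 6 lower (7.05% and 29.7%), with Rplp0 at 1.93-fold and Rpl38 at 0.608. In T cells 0 of 81 were higher and 11 lower (9.2% and 23.3%), from Rpl3 at 1.49-fold to Rps28 at 0.498. In MoMacDC_c2 it was 0 and 12 of 84 (14.2% and 16.1%). The counts of the other types were 24 and 3 in MoMacDC_c1 (12.7% and 16.7%), 14 and 7 in MoMacDC_c4, whose steady-state cells carried the NK cell markers given above (21% and 27.4%), 21 and 5 in MoMacDC_c5 (10.2% and 18.3%), 11 and 8 in progenitor DCs (15.5% and 21.3%), 12 and 7 in cDC2-A (13.2% and 27.1%) and 28 and 1 in macrophages (14.1% and 23%).

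The ratio between libraries went with the length of the coding sequence in each of 11 types. In MoMacDC cells, genes with a coding sequence under 300 bases had a median ratio of 0.723 (11 genes). It was 1.10 from 300 to under 450 bases (30 genes), 1.27 from 450 to under 600 bases (19 genes) and 1.46 from 600 bases (24 genes). The medians of other genes of the same length classes, up to 1300 bases, were 0.993, 1.09, 1.09 and 1.02. In T cells, where the sum moved least, the 4 medians of ribosomal protein genes were 0.687, 0.907, 1.252 and 1.28, and in MoMacDC_c2, where the sum was lower after GM-CSF, they were 0.614, 0.846, 0.987 and 1.14.

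Spearman's rho of ratio and coding length was 0.671 over 84 genes in MoMacDC cells, 0.708 over 83 in granulocytes, 0.729 in neutrophils, 0.733 in T cells and 0.777 in B cells. Over the 11 deposited types and P-I cells it lay between 0.693 and 0.789 for these genes and between -0.187 and 0.0183 for other genes. These are correlations across genes, which are not independent replicates, and all types share the same 2 libraries, so they are given as descriptions. The whole transcript length gave 0.383 in MoMacDC cells, GC content 0.0106, the copied share of the 3′ end -0.0469 and the level itself 0.294. Genes with Rps and with Rpl symbols both had the pattern, with 0.805 over 34 and 0.569 over 50 genes, paralogs and Rps19bp1 included. The 27 genes without a copy elsewhere gave 0.459.

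**Figure D4:**
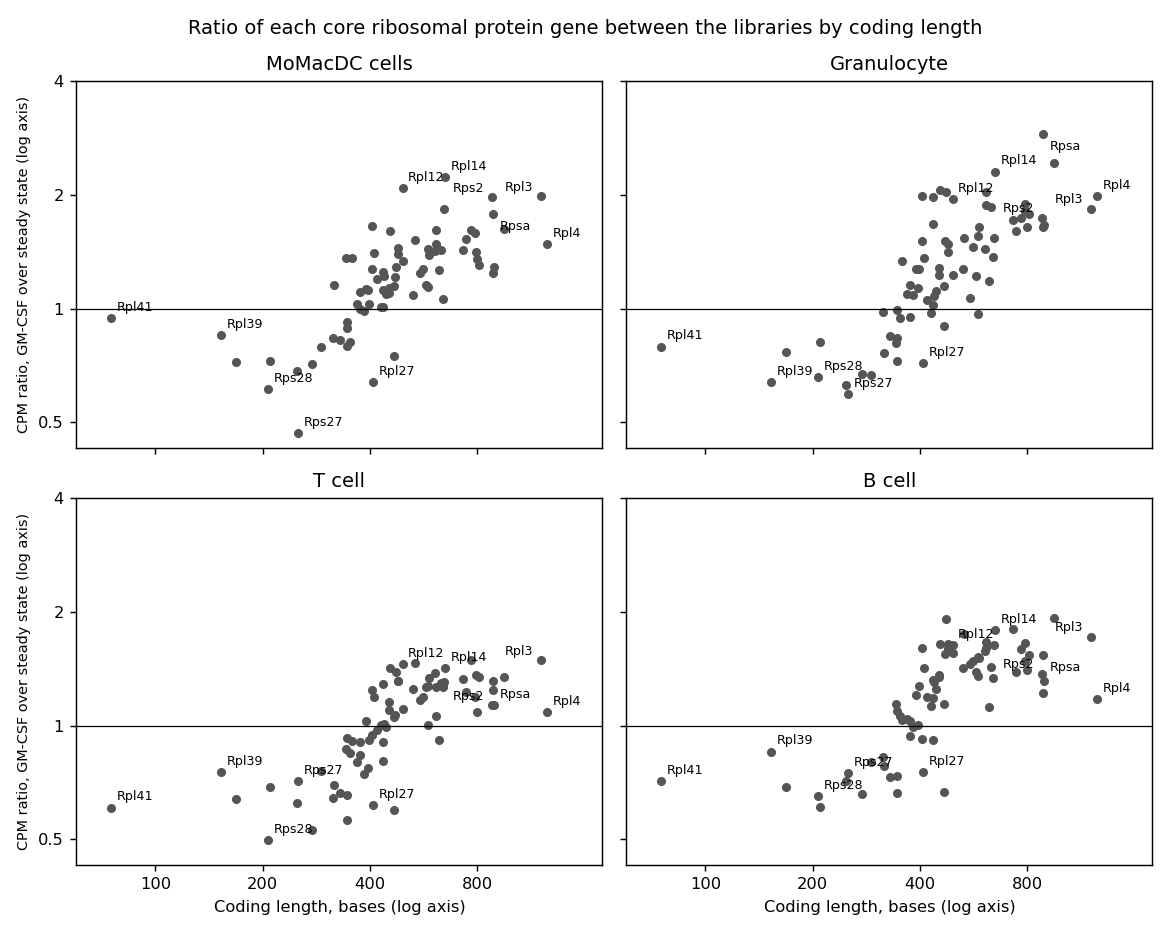
CPM ratio of GM-CSF over steady state (y axis, log scale) by coding length in bases (x axis, log scale) for the core genes in MoMacDC cells, granulocytes, T cells and B cells. Points are genes and the line marks equal levels. In the 4 panels short genes such as Rps27 and Rps28 lay below 1 and long genes such as Rpl14 and Rpl3 above it.

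The same genes lay on the same side in one type after another. Of 75 genes with at least 50 UMIs in each of 11 types (all but activated DCs), 27 had a CPM ratio above 1 in all 11 and 8 below 1 in all 11. The 8 were Rpl36, Rpl37a, Rpl38, Rps21, Rps26, Rps27, Rps28 and Rps29. As a part of all ribosomal protein UMIs, which leaves out the change of the sum, 23 genes were higher in all 11 types and 19 lower. The median coding length was 648 bases for the 23 and 315 for the 19, with none under 405 bases among the former and none over 468 among the latter. How many of all genes kept to one side in every type was not counted. All types share the same pair of libraries, so whether these counts are unusual cannot be told.

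Comparisons within a library did not have this gradient. Among subsets, phases and cluster groups, rho lay between -0.173 and 0.242, and between -0.315 and 0.0847 for the cell types set against MoMacDC cells. The medians of the 4 length classes for P-IV over P-I cells, for example, were 0.988, 0.974, 0.956 and 0.935.

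**Figure D5:**
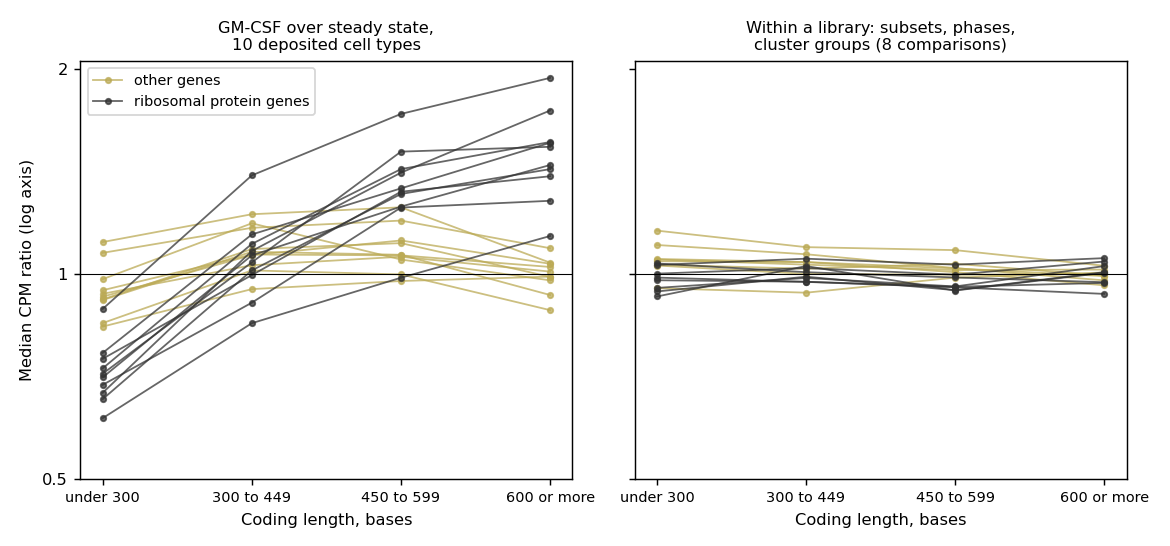
Median CPM ratio (y axis, log scale) by class of coding length (x axis, bases) for ribosomal protein genes (dark grey) and other genes (yellow). The left panel holds GM-CSF over steady state in 10 deposited types (macrophages and activated DCs are left out) and the right panel 8 comparisons within a library. Each line is a comparison. Dark lines climb from below 1 for genes under 300 bases to above 1 for genes from 600 bases on the left, and stay near 1 on the right.

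Within the GM-CSF library, the CD115hi subsets defined by antibody tags differed little. P-I cells are Ly6C+ classical monocytes, and P-IV cells are the CD301b+ cells that the study followed. The shares were 20.4% in P-I (187 cells), 20.1% in P-II (8 cells), 20.2% in P-III (126 cells) and 19.6% in P-IV (313 cells). The ratio of P-IV to P-I was 0.965 (0.960 to 0.969), of P-IV to P-III 0.972 (0.966 to 0.978) and of P-III to P-I 0.993 (0.986 to 0.999). The quartiles over cells, 18.0 and 21.9% in P-I and 17.2 and 21.6% in P-IV, overlapped.

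Of 84 genes, 0 were past 1.5-fold between these subsets, against 10.4% higher and 8.8% lower of all genes for P-IV over P-I, 7.09% and 7.64% for P-III over P-I, and 7.19% and 5.87% for P-IV over P-III. Rpl7a had the lowest ratio of P-IV to P-I, 0.801 (1672 CPM in P-I and 1340 CPM in P-IV), followed by Rpl9 (0.837), Rps2 (0.848), Rplp1 (0.855) and Rps18 (0.863). The highest were Rps27l (1.16), Rps4x (1.14), Rpl7l1 (1.14), Rpl28 (1.13) and Rps25 (1.13). Rps27l is known as a target of p53, and Rps4x is an X-linked small subunit gene.

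P-I cells could be set side by side in both libraries. Their share was 16.1% in 139 steady-state cells and 20.4% in 187 GM-CSF cells, a ratio of 1.27 (1.26 to 1.27). Higher by at least 1.5-fold were 16 of 84 genes and lower 4, beside 12.2% and 19.1% of all genes. Rpl14 was 2.32-fold, Rpl12 2.21-fold and Rpl22l1 2.20-fold higher, while Rps27 was at 0.520 and Rps27rt at 0.531.

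The phase of the cell cycle went with small differences only. In MoMacDC cells after GM-CSF the share was 20.2% in G1 (2523 cells), 20.6% in S (660 cells) and 20.04% in G2M (757 cells), ratios to G1 of 1.02 and 0.992. In steady state it was 16.5%, 17.4% and 16.2%, ratios of 1.05 and 0.981. No gene was past 1.5-fold for S over G1 in steady state (4.38% higher and 4.07% lower of all genes) or after GM-CSF (8.81% and 3.79%). For G2M over G1 it was 0 higher and 1 lower in steady state (16.1% and 11.6%), which was Rpl3l, and 0 after GM-CSF (12% and 14.5%).

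Clusters 7 and 8, which held most cells in G2M after GM-CSF, had 20.05% and clusters 0, 1, 3, 5 and 10 had 20.2%, a ratio of 0.995 (0.993 to 0.997). None of 84 genes was past 1.5-fold, where 13.1% of all genes were higher and 13.4% lower. The sum hid smaller differences of opposite sign. Rps20 was at 3592 CPM in the former clusters against 2773 CPM in the latter (1.30-fold), Rps2 was at 1.253-fold and Rpsa at 1.21-fold. Rps27 (0.789) and Rpl5 (0.848), a protein that carries 5S RNA into the ribosome, were lower. Within clusters 7 and 8 the share was 21.6% in 50 G1 cells, 20.5% in 152 S cells and 19.8% in 520 G2M cells.

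Paralogs of ribosomal proteins can replace their partner in some tissues. Rpl22l1 had 333 CPM in steady state and 603 CPM after GM-CSF in MoMacDC cells, and made up 19.7% and 31.1% of the UMIs it shared with Rpl22. In T cells it made up 28.1% and 32.6%. Rps27l made up 13.2% and 28.5% of its sum with Rps27 in MoMacDC cells, with Rps27l at 276 and 339 CPM and Rps27 at 1814 and 851 CPM, and 3.11% and 5.80% in T cells. Rpl36al was about level with Rpl36a in MoMacDC cells (52.1% and 46.6% of the pair) and below it in T cells (29.5% and 36.2%). The last 400 bases had a near-identical stretch elsewhere over 100% in Rpl22l1, Rpl36al and Rpl36a and 99.1% in Rps27. In Rpl22 and Rps27l it was 0%. Reads can thus be lost unequally within a pair, and these parts are of counted UMIs only.

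The other paralogs were minor. Rpl7l1 made up 2.45% and 2.33% of its sum with Rpl7 and Rpl6l 2.501% and 3.13% of its sum with Rpl6 in MoMacDC cells. Rps27rt stood at 4.55% and 4.36% of its sum with Rps27. Rpl39l, a testis gene, had 19 and 26 UMIs in MoMacDC cells. Rpl3l, a gene of heart and skeletal muscle, was detected at 30.7 CPM in MoMacDC_c5 of the steady-state library, with a UMI in 58 of 486 cells, and at 21.2 CPM in granulocytes. T cells, of like depth to MoMacDC_c5 (medians of 3747 and 3763.5 UMIs), had an Rpl3l UMI in 2 of 174 cells.

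Ribosomal proteins outside the symbol rule had both directions. Gnb2l1, which codes for Rack1, had 1966 CPM in steady state and 3114 CPM after GM-CSF in MoMacDC cells (1.58-fold). Fau, which codes for Rps30 as a ubiquitin-like fusion, had 4143 and 3301 CPM (0.797). Their coding lengths are 951 and 399 bases.

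Other genes of the translation machinery were set beside these. Of 15 elongation factors and other listed TOP genes, 6 were at least 1.5-fold higher after GM-CSF in MoMacDC cells and 0 lower, where 16.3% and 18.8% of all genes were, with a median of 1.41 against 0.959. Eef1g was at 1.85-fold and Pabpc1 at 0.910. In granulocytes it was 12 and 0 of 15, where 19.8% and 8.58% of all genes were, with a median of 1.78 against 1.08. Of 76 mitochondrial ribosomal protein genes, 18 were higher and 2 lower in MoMacDC cells, beside the same 16.3% and 18.8% of all genes, with a median of 1.31. Of 42 genes of ribosome biogenesis, 6 were higher and 4 lower, beside the same 16.3% and 18.8% of all genes. Their median was 1.03, and Fbl, which methylates ribosomal RNA, was at 1.92-fold.

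The sequence around the start site was examined because TOP genes carry pyrimidines there. The RefSeq table held a window for 66 of the 87 genes. The motif CTTTC, on the strand of the gene, stood within 100 bases around the start in 34 of the 66 (51.5%) and in 14.5% of 26959 other genes, and on either strand in 63.6% and 26.1%. CGGAAG, the core motif of ETS factors, stood on either strand of the 300 base window in 66.7% and 18.7%. Neither motif holds the other, and a match is a description, not a site. CTTTC was found on the strand of the gene in 21 of 35 genes with coding sequences under 450 bases and in 13 of the 31 longer ones. On either strand it was 65.7% and 61.3%, and on the strand of the gene in the 300 base window 68.6% and 61.3%. In the 300 base window on either strand 28 of the 35 shorter and 27 of the 31 longer genes held it. The direction was reversed in that setting only. A longer motif was also searched and is not reported here.

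The 30 bases around the start are shown for 9 of the 10 genes with the highest and lowest ratios in MoMacDC cells (Rpl3 is named only), so that the starts of both ends can be compared. They are given 5′ to 3′ on the strand of the gene, with 15 bases before the start, from RefSeq on GRCm38.p6, and capitals mark CTTTC.
Rpl14, chr9:120571502-120571531, plus strand: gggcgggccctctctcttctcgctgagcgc
Rpl12, chr2:32961697-32961726, plus strand: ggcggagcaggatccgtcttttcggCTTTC
Rps2, chr17:24720048-24720077, plus strand: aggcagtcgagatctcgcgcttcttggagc
Rpl10a, chr17:28328456-28328485, plus strand: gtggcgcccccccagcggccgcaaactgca
Rpl27, chr11:101442230-101442259, plus strand: acgctctgttcctgtctgctgctcgtgctg
Rps28, chr17:33824548-33824577, minus strand: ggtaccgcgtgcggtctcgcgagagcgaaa
Rps27, chr3:90213634-90213663, minus strand: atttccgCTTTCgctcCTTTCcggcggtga
Rps27rt, chr9:114982725-114982754, minus strand: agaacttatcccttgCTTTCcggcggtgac
Rpl3l, chr17:24727811-24727840, plus strand: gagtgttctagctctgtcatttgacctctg

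Among the 4 genes shown with high ratios, Rpl12 carried CTTTC in these bases, and among the 5 with low ratios, Rps27 and Rps27rt did.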

How the data were processed

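Single-cell RNA libraries were made with a 3′ kit, and the deposited matrices hold raw UMI counts that the authors made with Cell Ranger 3.0.2 on mm10, as the submitters' processing notes name them. Cells outside 200 to 5000 genes, or above 15% mitochondrial UMIs, had been removed by the authors, who assigned cell types, clusters, subsets and phases in Seurat 3.6.0. The mitochondrial share of each cell was deposited in percent by the authors. Nothing was integrated here.

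For each group, the UMIs of a gene over all its cells were set against all UMIs of that group (CPM). Ratios of single genes had 0.5 counts added to each sum and needed 50 UMIs over both, and 100 where a gene is named by its ratio or set against length. With 1 library per condition there was no test. Ratio intervals were checked on simulated data. Coding lengths came from GENCODE on GRCm38 and near-identical stretches from blastn 2.17.0. Doublets were called with Scrublet in scanpy 1.11.5. Python 3.11.15, numpy 2.4.6, pandas 2.3.3 and scipy 1.17.1 were used.

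The genes named were the 5 highest and 5 lowest by level or by ratio in a comparison, those whose part of the sum varied most between types, and all paralogs. Not every gene that this rule allows is named in each comparison. The neutrophil classes were chosen after the data were seen. The genes and lists were chosen with earlier results of these data known. Alternatives covered doublets, depth, weighting of cells, denominator, members, fold and minimum of UMIs. Antibody tag counts were not used here. Results for some genes are not reported here.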

Additional observations from a re-analysis of the deposited data

Results flagged for a closer look

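The sum of ribosomal protein genes was lower after GM-CSF in MoMacDC_c2 (ratio 0.942) while it was higher in the other deposited types. In the finer clusters of MoMacDC cells the same held for cluster 0 (0.851) and cluster 3 (0.888), and the other clusters were above 1. The difference between these cells and the others was not tested, since there is 1 library per condition. Of the 177 steady-state cells in MoMacDC_c2, 87 lay in cluster 3, 22 in cluster 9, 16 in cluster 10 and 14 in cluster 0, and of the 1471 GM-CSF cells 649 lay in cluster 0, 496 in cluster 3 and 165 in cluster 10.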

How the results depend on the processing

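No paired analysis was possible because each condition has 1 library. The ratio of T cells to granulocytes, main values 8.36 in steady state and 7.53 after GM-CSF, was 8.77 and 7.63 without doublets, 8.27 and 7.11 as a mean over cells, 8.86 and 7.95 without mitochondrial UMIs, 11.3 and 10.3 over UMIs of other genes, and 7.74 and 7.21 with the listed ribosomal proteins outside the symbol rule added. For GM-CSF over steady state, granulocytes (1.16) gave 1.15 at 1000 UMIs per cell, 1.20 as a mean over cells and 1.12 with those proteins added. Neutrophils (1.59) gave 1.66 without doublets, 1.65 at 1000 UMIs and as a mean over cells, 1.61 without mitochondrial UMIs and 1.64 over other genes. Alternatives added after the data were seen gave neutrophils 1.73 without cells with Elane or Mpo and 1.65 also without cells with Mki67 or Top2a. MoMacDC cells (1.22) gave 1.21 without doublets and with those proteins, 1.24 at 1000 UMIs and as a mean over cells, 1.23 without mitochondrial UMIs and 1.27 over other genes.

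P-III over P-I (0.993) changed direction, to 1.01, at 1000 UMIs, as a mean over cells and in G1 cells only, and was 0.978 without doublets and 0.984 without mitochondrial UMIs. Clusters 7 and 8 over the others (0.995) changed direction to 1.0 at 1000 UMIs and 1.01 as a mean over cells, and gave 0.998 without doublets and without mitochondrial UMIs and 0.992 with those proteins. P-IV over P-I (0.965) gave 0.951, 0.973, 0.955, 0.956 and 0.952 without doublets, at 1000 UMIs, without mitochondrial UMIs, over other genes and in G1 cells. P-IV over P-III (0.972) gave 0.963 at 1000 UMIs, 0.962 as a mean over cells, 0.965 over other genes and 0.940 in G1 cells. S over G1 (1.02) gave 1.01 without doublets and 1.02 as a mean over cells and over other genes. G2M over G1 (0.992) gave 0.985 without doublets, 0.997 at 1000 UMIs, 0.999 as a mean over cells, and 0.990 over other genes and with those proteins.

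The count of genes past 1.5-fold was 37 in granulocytes and 21 in MoMacDC cells, 56 and 49 at the lower of the other folds tried, and 7 and 5 at 2-fold. The correlation with coding length (0.671) was 0.725 at 1000 UMIs and 0.672 without doublets, 0.383 with the transcript length and 0.459 in genes without a copy. Of 20 named ratios none changed direction, 5 moved beyond their interval at 1000 UMIs and 8 over other genes. The cause of these shifts was not tested. Depth limits the genes of few UMIs, such as Rpl3l and Rpl39l.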

Other observations

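Myc, a transcription factor that drives ribosome production, was 2.88-fold higher after GM-CSF in MoMacDC cells. Of the 5 listed genes of its network, 3 in B cells and 4 in the other types named here had at least 50 UMIs. Where Myc was the highest or lowest of these, it was at 5.40-fold in MoMacDC_c1 and 1.47-fold in MoMacDC_c2. It was at 0.794 in progenitor DCs and 0.238 in B cells. The types were picked by that rule, and the ratios of Myc in other types and its UMIs are not given here.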
